A study of Mus musculus and Rattus norvegicus with 53 samples.

Results

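Schwann cells (SCs) that had migrated into the nerve bridge 6 days after sciatic nerve transection were compared with SCs of the uninjured nerve. The comparison was defined by the sample labels and used 8 of the 53 libraries of the series, 4 of bridge SCs (bSCs; libraries 1, 2, 3 and 5) and 4 of intact-nerve SCs (iSCs; libraries 1, 2, 4 and 5), with all 24016 genes listed in the counts. All mice were tdTomato+ adults of both sexes in which a Cre transgene active in the neural crest lineage switched on a Rosa26 tdTomato reporter in most but not all SCs. One sciatic nerve was cut and the contralateral uncut nerve was the intact sample. Each library was made by Smart-seq2, a full-length poly(A) RNA method for small inputs, from tdTomato-sorted cells of nerves pooled from 3 mice. The bridges of the 3 mice were digested together and the intact nerves separately before pooling, so injury and handling cannot be told apart. Levels are in CPM, each library's counts over its total after trimmed-mean scaling, and values are listed for intact libraries 1, 2, 4 and 5 and for bridge libraries 1, 2, 3 and 5 in that order.

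SCs insulate axons of peripheral nerves, either by wrapping 1 axon in a lipid-rich myelin sheath or by holding bundles of small axons. After a cut they leave the myelinating state, divide, and at the wound move in cords across the new tissue, the bridge, that joins the stumps. The bridge also holds fibroblasts, macrophages and new blood vessels.

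Depth was 11435463 to 22617054 gene counts in the bridge libraries and 11927906 to 19011563 in the intact libraries. Between 11735 and 12606 genes were detected in bSCs and between 13600 and 14987 in iSCs, with no overlap (two-sided exact permutation test, p = 0.02857, the smallest that 4 against 4 allows), and the groups stayed apart when every library was thinned to the smallest total (11632 to 12495 against 13586 to 14982). The SC label was checked against Sox10, the transcription factor that defines the SC lineage, which was at 329, 422, 376 and 219.9 CPM in iSCs and 63.01, 103, 219 and 130.5 CPM in bSCs. The SC calcium-binding protein S100b was at 159, 169, 230.2 and 192 CPM in iSCs and at 6.86, 9.73, 56.6 and 2.71 CPM in bSCs. Both markers had counts in every library, and S100b was lowest in bridge 5. The summed level of 11 SC identity genes was 11230, 14660, 10560 and 5923 CPM in iSCs and 1510, 1809, 2796 and 1889 CPM in bSCs. In each bridge library it lay below the sum of the 20 macrophage markers given further on. The share of SCs in each library was not measured. Fibroblast and macrophage markers were also found in every library, and their summed levels are given with the results they move with. Intact 4 and intact 5 stood apart from intact 1 and intact 2 in fibroblast markers, and intact 5 in macrophage and mast cell markers.

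Of 13751 genes that passed the filter on low counts, 2022 differed between bSCs and iSCs (14.7% at an adjusted p under 0.05, edgeR quasi-likelihood test, Benjamini-Hochberg). Of these, 996 were higher in bSCs (7.24%) and 1026 were lower (7.46%), and 649 (4.72%) and 916 (6.66%) of them differed by more than 2.5-fold. The median log2 fold change was 1.56 among the higher and -2.99 among the lower genes. The counts of list members below are to be read beside the 7.24% higher and 7.46% lower of all tested genes. Of the called genes, 1843 had groups of libraries that did not overlap. Calling selects such genes in the same libraries, so this number adds no support. Over all tested genes, every bridge library lay above every intact library in 10.5% and below in 14.5%. With the pool number as a block, 968 genes were called (7.04%), 491 higher (3.57%) and 477 lower (3.47%), and 924 of the 968 were among the 2022. With DESeq2, 3114 genes were called (22.6%), 1372 higher (9.98%) and 1742 lower (12.7%). Without intact 1, 1318 genes were called, and the lower genes numbered 623 without intact 1 and 676 without intact 2. In all, 1146 genes were called in every fit that left out one library.

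**Figure D1:**
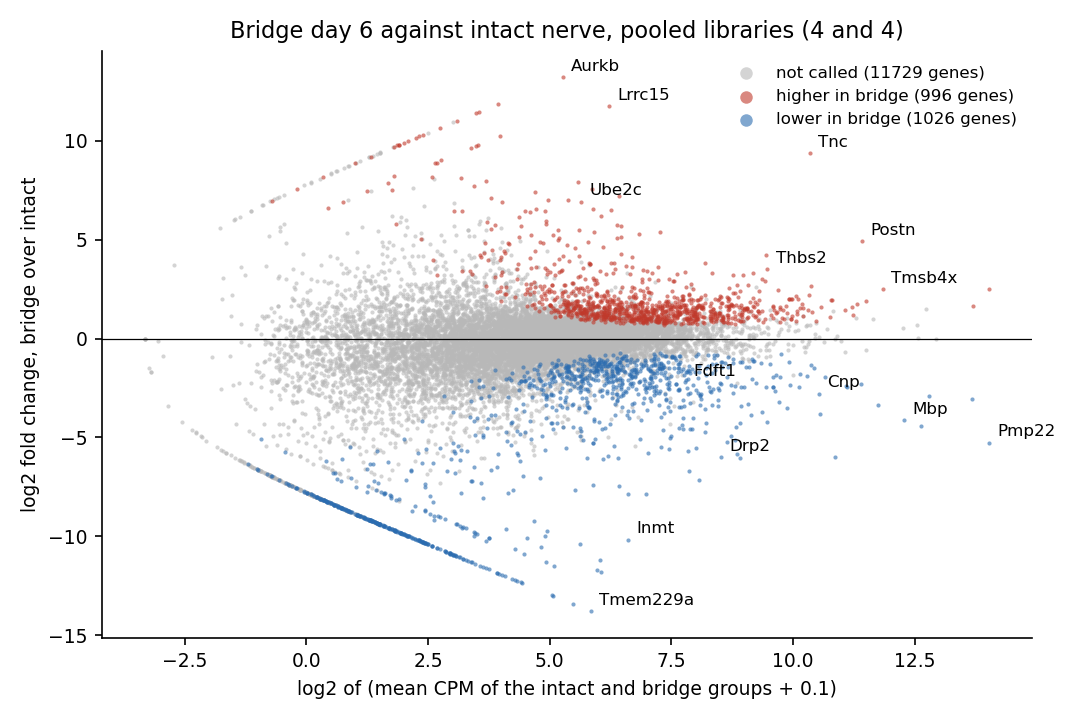
Each point is 1 of the 13751 tested genes, by mean level (x axis, log2 of mean CPM plus 0.1) and log2 fold change of bSCs over iSCs (y axis). Red and blue points are the 996 higher and 1026 lower genes, and the diagonal edges are genes at 0 in all libraries of one group, whose fitted fold change depends on the prior count.

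Myelin genes were reduced. Of 21 myelin sheath genes, all tested, 17 fell and none rose, with a median log2 fold change of -3.95 against -0.16 over all tested genes. With the block 15 fell, and 12 to 18 fell when one library was left out. Pmp22, which encodes a membrane protein of compact myelin (chr11:62942484-62973049, plus strand, mm9), was at 31330, 37580, 43870 and 17400 CPM in iSCs and at 593, 702, 1513 and 586 CPM in bSCs. Every intact library lay far above the highest bridge library, and the log2 fold change was -5.26 ± 0.61 (SE; adjusted p = 0.000243). Mbp, the basic protein of the myelin cytoplasmic face, was at 7493, 10040, 15320 and 4599 CPM in iSCs and 254, 326, 1471 and 82.2 CPM in bSCs, with bridge 3 the highest of the bridge libraries and still below every intact library (-4.13 ± 0.89, adjusted p = 0.00781). Drp2, which links the outer SC membrane to the basal lamina and patterns myelin, fell by 5.99 ± 1.05 on the log2 scale (adjusted p = 0.00224), and Cnp fell by 2.78 ± 0.47 (adjusted p = 0.00187). The 4 genes that did not pass were Mag, Gldn, Pmp2 and Gal3st1. Among them Mag, an adhesion molecule facing the axon, was at 349, 475, 384 and 142 CPM in iSCs and 11.9, 14.1, 30.8 and 11.5 CPM in bSCs without overlap (-4.31 ± 1.38, adjusted p = 0.0519; adjusted p = 0.0378 with the block). In these bulk libraries fewer cells of a type and less RNA per cell cannot be told apart.

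Some transcription factors of the myelin program fell as well. Of 13 listed factors 4 fell and none rose (2 without intact 1, and 2 without intact 2): Egr2, Srebf2, Srebf1 (adjusted p = 0.0184; adjusted p = 0.0968 with the block) and Sox10. Egr2, the zinc-finger factor required for myelination, was at 294, 453, 245 and 164 CPM in iSCs and 80.4, 49.4, 35.3 and 83.5 CPM in bSCs, with every bridge library below every intact library (-2.22 ± 0.38, adjusted p = 0.002). Sox10 fell by 1.39 ± 0.39 on the log2 scale (adjusted p = 0.0302), and its call was lost without intact 1, 2 or 4 or bridge 1, 2 or 5. Of 11 SC identity genes 6 fell (4 with the block, 3 without intact 2 and 3 without bridge 1), among them S100b (-3.31 ± 0.72, adjusted p = 0.00804).

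Several lipid synthesis genes fell. Of 20 tested genes of the cholesterol synthesis pathway 10 fell and none rose (median -1.88, 8 with the block, 9 to 11 without one library). Hmgcs1 was listed at 0 in every library and was not tested. Fdft1, squalene synthase, the first enzyme committed to sterols (chr14:63763990-63796630, minus strand, mm9), was at 406, 425, 382 and 235 CPM in iSCs and 83.5, 91.4, 70.04 and 66.3 CPM in bSCs. The groups did not overlap, and the log2 fold change was -2.22 ± 0.24 (adjusted p = 0.000136). Msmo1, a later enzyme of the pathway, fell by 2.93 ± 0.43 (adjusted p = 0.000753), and Sc5d, another, fell by 3.10 ± 0.51 (adjusted p = 0.00149). Srebf2, the factor that induces these enzymes when sterol is low, was at 114, 174, 110.5 and 126 CPM in iSCs and 47, 23.6, 28.7 and 54.9 CPM in bSCs, again without overlap (-1.77 ± 0.35, adjusted p = 0.00504). Of 23 sterol uptake and fatty acid synthesis genes 9 fell and none rose (4 with the block, 5 without intact 2 and 5 without bridge 2). These included Scd2, a stearoyl-CoA desaturase (-2.37 ± 0.32, adjusted p = 0.000506), and Insig1, which holds the sterol sensor in the endoplasmic reticulum (-2.55 ± 0.35, adjusted p = 0.000554).

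Several channels, pumps and trophic receptors of mature SCs fell. Of 16 tested ion channel and pump genes 8 fell and none rose (median -2.63, 7 with the block, 6 to 8 without one library). Scn7a, a sodium channel of the SC membrane, was at 1073, 1724, 842 and 553 CPM in iSCs and 68.7, 80.7, 61.8 and 75.1 CPM in bSCs, a narrow band well below the lowest intact library (-3.87 ± 0.36, adjusted p = 5.61e-05). Kcna2, a voltage-gated potassium channel, fell by 4.50 ± 0.70 (adjusted p = 0.00108). Of 12 tested axon-glia adhesion genes 3 fell and none rose, Nfasc, Cadm3 and Chl1 (adjusted p = 0.0229; adjusted p = 0.168 with the block, and lost without intact 1 or 2 or bridge 1, 2 or 3). Nfasc, an adhesion molecule of SC contact with axons, was at 213, 201, 260.1 and 101 CPM in iSCs and 0, 0, 0.859 and 2.38 CPM in bSCs (-7.85 ± 1.11, adjusted p = 0.000655). Of 22 tested neurotrophic factors and receptors 3 rose (13.6%, Gdnf and Ngfr among them) and 3 fell (13.6%, Ntrk2, Ntrk3 and Fgf7), beside 7.24% and 7.46% of all genes. With the block 2 rose and 2 fell, and 6 were higher without intact 5 or without bridge 1. Fgf7 did not pass with the block (adjusted p = 0.0862) or without intact 1, 2, 4 or 5 or bridge 3 or 5. Ntrk3, the receptor of neurotrophin-3 (chr7:85337248-85723294, minus strand, mm9), was at 60.9, 131, 87.1 and 77.9 CPM in iSCs and had no count in any bridge library, at least 475-fold lower at a floor of 3 counts per library (adjusted p = 0.00168). Ntrk2, the receptor of brain-derived neurotrophic factor, was at 205, 249, 155 and 175 CPM in iSCs and 32.2, 25.6, 18.9 and 34.2 CPM in bSCs (-2.82 ± 0.28, adjusted p = 7.72e-05). Ngfr, the low-affinity neurotrophin receptor that marks non-myelinating and injured SCs, moved the other way, from 152, 231, 92.5 and 108 CPM in iSCs to 627, 371, 899 and 351 CPM in bSCs (1.95 ± 0.45, adjusted p = 0.0116).

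**Figure D2:**
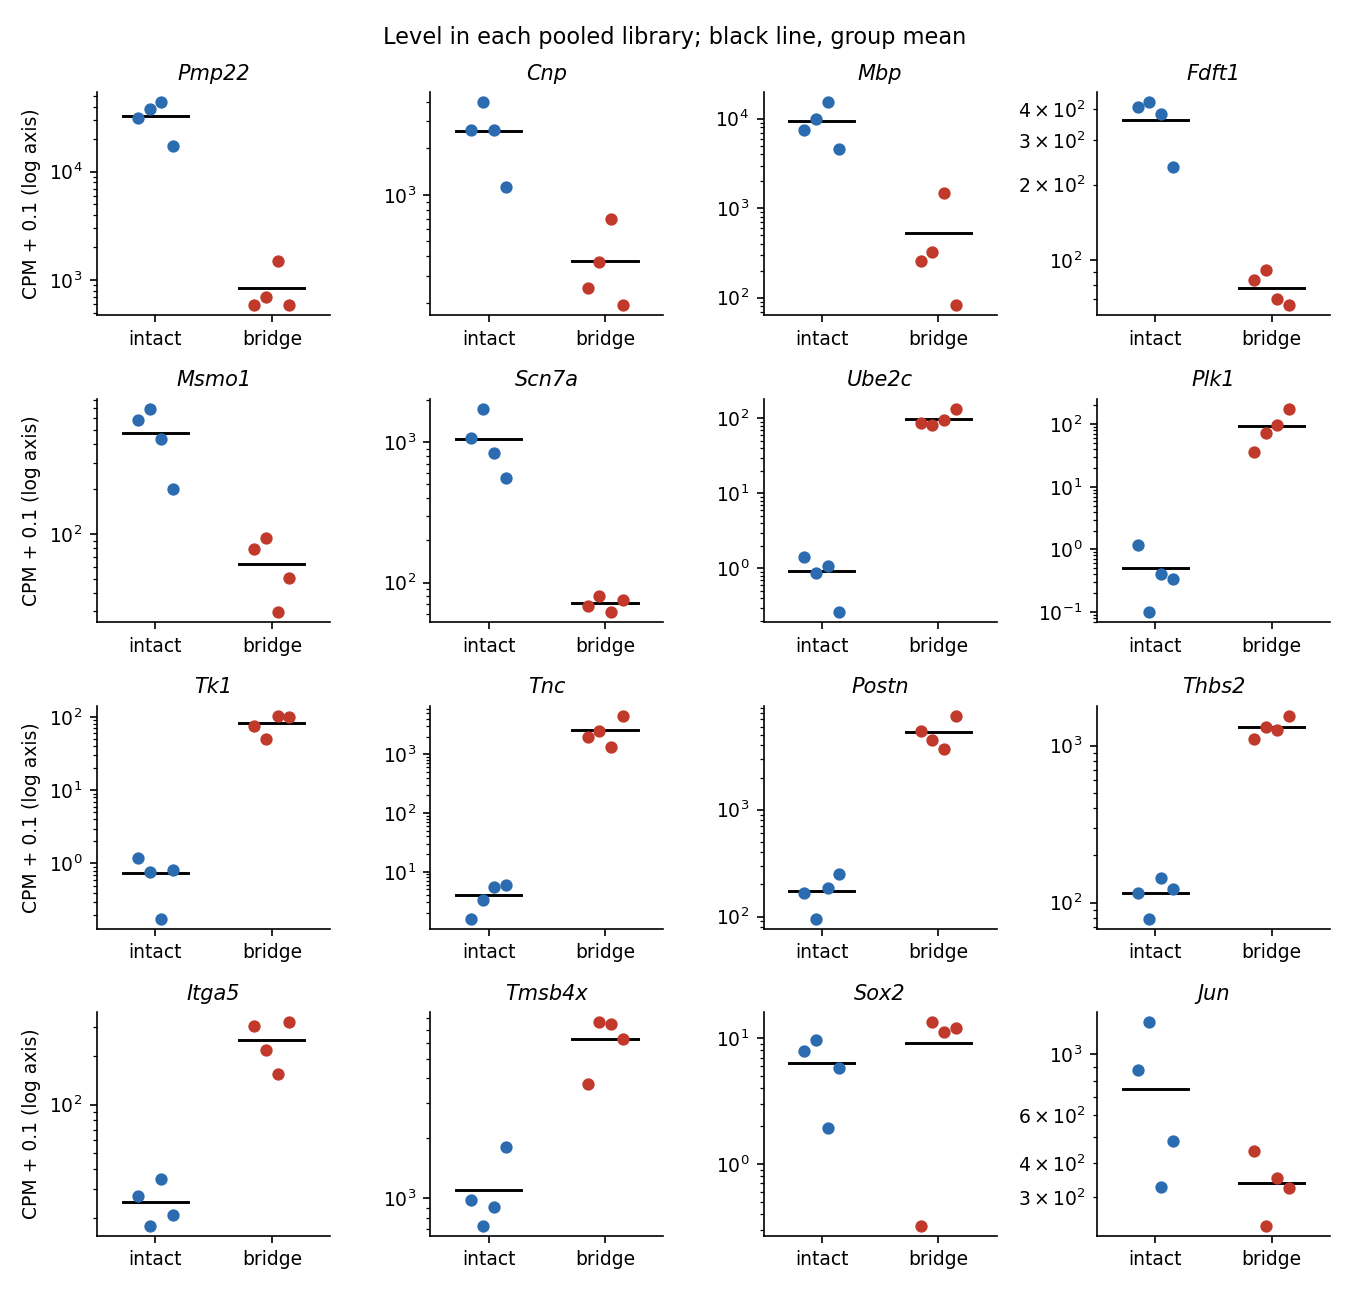
Level of 16 genes in each pooled library (points; blue, intact; red, bridge; CPM plus 0.1 on a log axis; black lines, group means, n = 4). The groups do not overlap for any gene shown except Sox2, where bridge 1 is at 0.224 CPM, and Jun, where intact 4 lies inside the bridge range.

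Genes of cell division rose. Of 40 mitosis genes 31 rose and none fell (median 4.85, 23 with the block, 27 to 33 without one library). Aurkb, the kinase of the chromosomal passenger complex (chr11:68859149-68865166, plus strand, mm9), had no count in any intact library and was at 64.4, 57.7, 84.4 and 101 CPM in bSCs, at least 359-fold higher at the same floor (adjusted p = 9.53e-05). Ube2c, the ubiquitin-conjugating enzyme that starts mitotic exit (chr2:164595398-164604322, plus strand, mm9), was at 1.33, 0.763, 0.985 and 0.161 CPM in iSCs and 86.2, 81.3, 94.7 and 134 CPM in bSCs. Its bridge libraries lay close together, and the log2 fold change was 6.92 ± 0.59 (adjusted p = 3.79e-05). The cyclin gene Ccnb1 was at 2.81, 0, 1.51 and 0.323 CPM in iSCs and 121, 125, 211 and 224 CPM in bSCs (7.22 ± 1.08, adjusted p = 0.000877), and its partner kinase gene Cdk1 at 6.94, 0.712, 0.227 and 0.645 and 47.5, 71.2, 140.5 and 119 CPM (5.47 ± 0.97, adjusted p = 0.0024). Intact 1 was the highest intact library for both. Plk1, a mitotic kinase, rose by 7.88 ± 1.06 (adjusted p = 0.000507), Prc1, which bundles spindle microtubules, by 4.62 ± 0.45 (adjusted p = 6.29e-05), and the proliferation marker Mki67 by 4.05 ± 0.63 (adjusted p = 0.00108). Pbk, another mitotic kinase, rose by 7.53 ± 1.10 (adjusted p = 0.000758), while Tpx2, a spindle assembly factor that rose by 6.56 ± 1.35 (adjusted p = 0.00588), did not pass with the block (adjusted p = 0.0539).

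Many DNA replication genes rose. Of 37 listed genes 21 rose and none fell (median 2.36), 10 with the block, 12 without intact 1 and 11 without bridge 5. Tk1, the thymidine kinase of S phase, was at 1.09, 0.661, 0.0757 and 0.726 CPM in iSCs and 74.7, 50.7, 104 and 100.1 CPM in bSCs with a wide gap between the groups (6.996 ± 0.67, adjusted p = 6.19e-05). The ribonucleotide reductase subunits Rrm1 and Rrm2 rose by 2.34 ± 0.27 (adjusted p = 0.000226) and 5.30 ± 0.83 (adjusted p = 0.00112). The helicase subunit Mcm6 rose by 3.67 ± 0.53 (adjusted p = 0.00072) and Uhrf1, which carries DNA methylation through replication, by 5.37 ± 0.71 (adjusted p = 0.000504). Pcna, the sliding clamp, rose by 1.34 ± 0.29 (adjusted p = 0.0071) but not with the block (adjusted p = 0.0576). Among 16 D cyclins and CDK inhibitors 2 rose (12.5%) and 3 fell (18.75%). Ccnd1, the cyclin that carries cells out of G1, was at 108, 101, 71.6 and 106 CPM in iSCs and 621, 818, 1152 and 1015 CPM in bSCs (3.22 ± 0.31, adjusted p = 6.19e-05), and its kinase Cdk4 rose by 1.82 ± 0.23 (adjusted p = 0.000412). The CDK inhibitors Cdkn1a, at 749, 812, 571 and 296 CPM in iSCs and 68.9, 187, 107 and 124 CPM in bSCs, and Cdkn1b, at 72.8, 53.7, 97.7 and 40.01 and 11.1, 3.66, 15.6 and 3.08 CPM, were lower without overlap. Cdkn1a fell by 2.32 ± 0.36 (adjusted p = 0.00108) and Cdkn1b fell by 2.99 ± 0.64 (adjusted p = 0.00729). The third lower gene was Rbl2, a relative of the retinoblastoma protein (-1.995 ± 0.58, adjusted p = 0.0342; adjusted p = 0.107 with the block), with overlapping groups and a call lost without intact 1, 2 or 4 or bridge 1, 2 or 5.

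Promoters of the rising mitosis genes often held the pentamer CCAAT, which the factor NF-Y binds. It was searched in the 250 bases before each gene's start on both strands, in RefSeq promoters of GRCm38.p6. Of the 31 called mitosis genes 25 matched a promoter and 20 of these (80.0%) held it, against 9314 of 27025 promoters (34.5%). The CHR element TTTGAA was in 7 of the 25 (28%) against 4398 of all (16.3%). Of the 17 matched promoters of called replication genes 10 held CCAAT (58.8%) and 2 (11.8%) the E2F site TTTGGCGC, which 118 promoters held in all (0.437%). Of 5 matched promoters of lower cholesterol genes 5 held CCAAT and 0 the sterol element TCACNCCAC, found in 280 promoters (1.04%). Each motif was counted on its own, so matches of different motifs may overlap, and a match describes the letters of the window and is not a site. Promoter stretches of 4 rising genes are shown because they hold CCAAT or, as ATTGG, the same letters on the other strand, and capitals mark these matches. They lie at chr7:122159381-122159434 (Plk1, plus strand), chr7:80294374-80294450 (Prc1, plus strand), chr13:100786509-100786625 (Ccnb1, minus strand) and chr5:30666737-30666844 (Cenpa, plus strand), and are written 5′ to 3′ along each gene's strand.
Plk1: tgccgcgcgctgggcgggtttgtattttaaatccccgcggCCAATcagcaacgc
Prc1: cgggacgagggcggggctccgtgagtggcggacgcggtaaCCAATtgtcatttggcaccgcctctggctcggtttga
Ccnb1: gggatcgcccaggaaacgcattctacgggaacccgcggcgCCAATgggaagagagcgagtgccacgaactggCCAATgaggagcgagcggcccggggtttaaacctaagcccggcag
Cenpa: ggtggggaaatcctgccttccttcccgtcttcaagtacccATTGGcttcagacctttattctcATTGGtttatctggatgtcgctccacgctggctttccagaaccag

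Several matrix genes known from wound tissue rose. Of 29 tested matricellular and provisional matrix genes 6 rose and 3 fell (5 and 1 with the block). Tnc, tenascin-C, a matrix glycoprotein of developing and wounded tissue (chr4:63620819-63681760, minus strand, mm9), was at 1.48, 3.15, 5.3 and 5.81 CPM in iSCs and 1963, 2543, 1343 and 4575 CPM in bSCs. The groups were far apart, and with a log2 fold change of 9.37 ± 0.62 it had the lowest p of all genes (adjusted p = 1.16e-05). Postn, periostin, which links collagen and matricellular proteins (chr3:54165031-54194961, plus strand, mm9), was at 167, 95.2, 186 and 248 CPM in iSCs and 5464, 4510, 3729 and 7602 CPM in bSCs (4.94 ± 0.38, adjusted p = 3.79e-05). Thbs2, thrombospondin-2 (chr17:14802507-14831269, minus strand, mm9), was at 114, 78.8, 143 and 122 CPM in iSCs and in a narrow band at 1100, 1319, 1261 and 1552 CPM in bSCs (3.51 ± 0.29, adjusted p = 3.79e-05). Loxl2, a collagen-crosslinking enzyme, rose by 2.76 ± 0.46 (adjusted p = 0.00163). The 3 lower genes were Dcn, Vtn and Lum, of which Dcn, the small proteoglycan decorin, was at 8288, 4747, 14720 and 22410 CPM in iSCs and 2955, 1337, 1509 and 799 CPM in bSCs (-2.93 ± 0.51, adjusted p = 0.00216). Intact 4 and intact 5 were the highest for Dcn and are also the libraries with the most fibroblast marker RNA, of which Dcn is one, and intact 1 and intact 2 also lay above every bridge library. Vtn, vitronectin, fell by 3.50 ± 0.73 (adjusted p = 0.0063; adjusted p = 0.0644 with the block). Lum, lumican, fell by 1.95 ± 0.55 (adjusted p = 0.0299; adjusted p = 0.158 with the block), with overlapping groups and a call lost without intact 1, 4 or 5 or bridge 2, 3 or 5.

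Some collagen, laminin and integrin genes were called. Of 23 collagens 5 rose (21.7%) and 2 fell (8.70%), beside 7.24% and 7.46% of all genes. With the block 5 rose and 0 fell, 3 rose without intact 1, intact 2 or bridge 5, 8 rose without intact 5, and 0 fell without intact 1, intact 2, bridge 2, bridge 3 or bridge 5. Col18a1, a basement membrane collagen, was at 89.2, 125, 216 and 225 CPM in iSCs and 1090, 811, 1303 and 1640 CPM in bSCs (2.89 ± 0.38, adjusted p = 0.000473), and the fibrillar Col5a2 at 364, 349, 546 and 503 and 1451, 1613, 1322 and 2636 CPM (1.99 ± 0.27, adjusted p = 0.000554). Of 28 laminin, integrin and dystroglycan-complex genes 7 fell (25.0%) and 2 rose (7.14%), with 5 and 1 under the block and 4 lower without intact 1. The 2 that rose were Itga5 and Itgb1, which form the fibronectin receptor. Itga5 was at 27.2, 17.8, 34.4 and 20.6 CPM in iSCs and 305, 218, 155 and 322 CPM in bSCs, with bridge 3 the lowest of its group (3.32 ± 0.32, adjusted p = 6.25e-05). Itgb1 rose by 1.30 ± 0.29 (adjusted p = 0.00936) but not with the block (adjusted p = 0.0853). Itgb4, the laminin-receptor subunit of myelinating SCs and perineurial cells, was at 501, 539, 484 and 406 CPM in iSCs and 44.7, 51.4, 97.4 and 87.5 CPM in bSCs (-2.78 ± 0.33, adjusted p = 0.000257). The laminin chain Lama2, the main alpha chain of the SC basal lamina, fell by 2.32 ± 0.37 (adjusted p = 0.0012) and Lamb2 fell by 2.501 ± 0.34 (adjusted p = 0.000554). Of 24 tested matrix proteases and inhibitors 5 rose (20.8%) and 4 fell (16.7%). With the block 2 rose, as did 2 without intact 1 and 3 without intact 2, intact 4 or bridge 2. Plaur, the urokinase receptor, was at 6.47, 3.41, 7.65 and 21.8 CPM in iSCs and 108, 80.97, 45.3 and 108 CPM in bSCs (3.12 ± 0.56, adjusted p = 0.00267). Adam12, a membrane metalloprotease, rose by 4.71 ± 0.88 (adjusted p = 0.00323), and the protease inhibitor Timp3 fell by 1.47 ± 0.31 (adjusted p = 0.007).

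Mesenchymal transition genes were tested as a list of 32, of which 9 rose and 1 fell (6 and 1 with the block). Cd44, the hyaluronan receptor, was at 91.5, 74.9, 56.6 and 115 CPM in iSCs and 527, 891, 548 and 1173 CPM in bSCs (3.22 ± 0.33, adjusted p = 9.53e-05), and Lgals1, galectin-1, at 356, 300, 545 and 646 and 1595, 2112, 2726 and 1947 CPM (2.18 ± 0.30, adjusted p = 0.000609). Neither gene had overlapping groups. Vim, the intermediate filament vimentin, was at 1104, 1027, 1203 and 1154 CPM in iSCs and 1348, 2326, 2093 and 3628 CPM in bSCs (1.07 ± 0.33, adjusted p = 0.0466; adjusted p = 0.107 with the block), a call lost in 7 of the 8 fits without one library. Cdh1, E-cadherin, which joins membrane folds within the myelinating SC, was the gene that fell, at 97.6, 105, 131 and 49.9 CPM in iSCs and 0, 0, 13.2 and 2.15 CPM in bSCs (-4.66 ± 1.43, adjusted p = 0.0441). Its groups did not overlap, but the call was lost in the fit of bridge and intact libraries only (adjusted p = 0.0741) and without intact 1, 2, 4 or 5 or bridge 2 or 5. Of 22 junction genes 7 fell (31.8%) and 2 rose (9.09%). With the block 3 fell and 1 rose, 4 fell without intact 1 or intact 2, and 1 rose without intact 2, 4 or 5 or bridge 1 or 5.

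TGFβ signalling genes were tested because this pathway drives mesenchymal change in other tissues. Of 27 pathway genes 6 rose (22.2%) and 1 fell (3.70%), with 3 higher under the block and 3 higher without intact 4. Pmepa1, a feedback inhibitor of the pathway, was at 25.3, 39.8, 41.3 and 44.4 CPM in iSCs and 147, 294, 166 and 273 CPM in bSCs (2.54 ± 0.32, adjusted p = 0.000337). Skil, another feedback target, rose by 2.14 ± 0.41 (adjusted p = 0.00389) and the ligand Tgfb2 by 2.26 ± 0.48 (adjusted p = 0.00739). Tgfbr3, the co-receptor betaglycan, was the gene that fell, from 556, 1045, 349.7 and 278 CPM in iSCs to 75.3, 94.6, 106 and 101 CPM in bSCs (-2.56 ± 0.40, adjusted p = 0.00108). Of 121 tested genes of a list that the study chose as raised by TGFβ in cultured rat SCs, 12 rose and 6 fell (10 and 3 with the block, and 3 lower without intact 1), or 9.92% and 4.96%, beside 7.24% and 7.46% of all genes. Tnfrsf12a, the receptor of the cytokine TWEAK, was in a narrow band at 19.7, 16.7, 19.2 and 18.7 CPM in iSCs and at 116, 216, 178 and 213 CPM in bSCs (3.28 ± 0.40, adjusted p = 0.000326). Upp1, a uridine phosphorylase, rose by 6.42 ± 0.97 (adjusted p = 0.000944), and Nkd2, a Wnt pathway inhibitor, by 3.42 ± 0.62 (adjusted p = 0.00287). Of 37 tested genes listed as lowered by TGFβ in those cultures, 9 fell and 2 rose, Sema4f and Ngfr (median -1.17; 5 higher without intact 5).

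**Figure D3:**
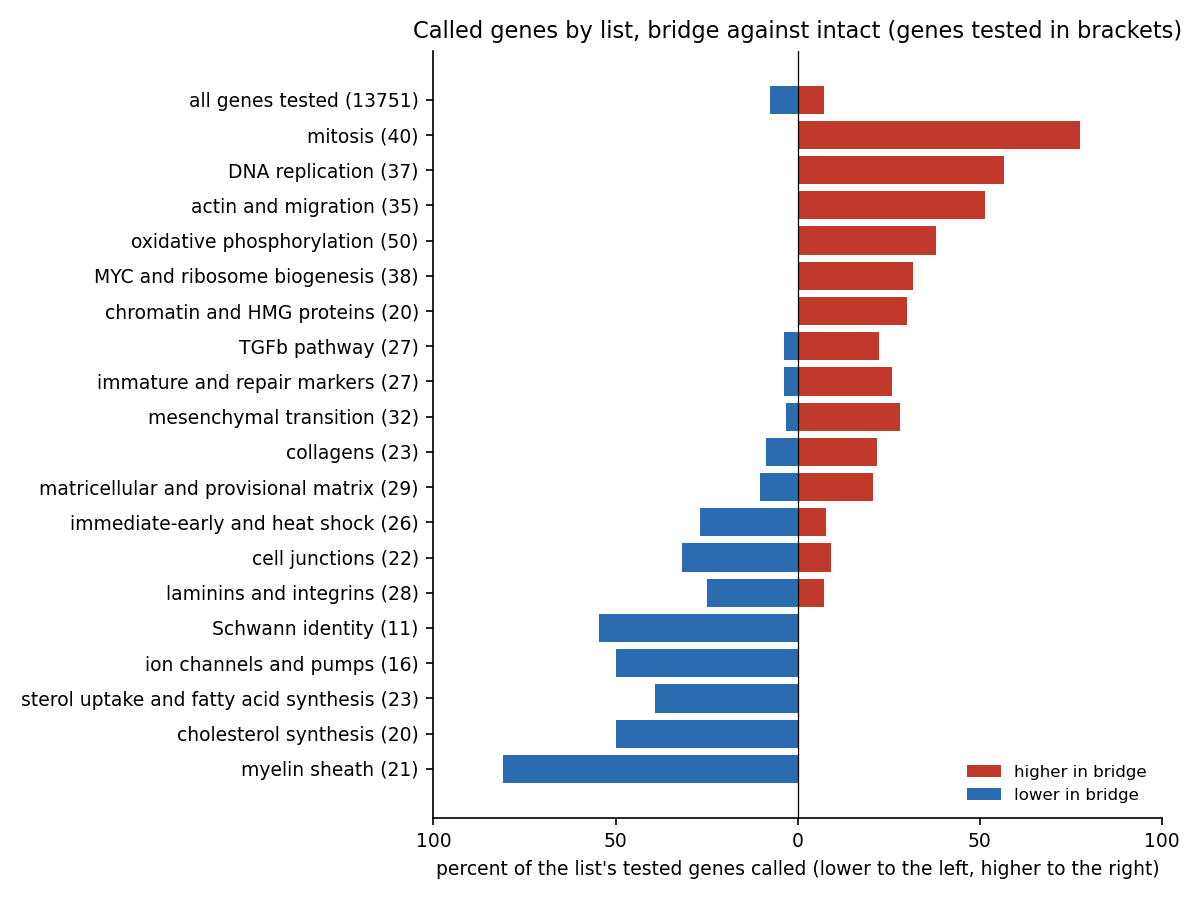
Percent of the tested genes of each list (number in brackets) that were called higher (red, right) or lower (blue, left) in bSCs, with all 13751 genes in the top row. The myelin list stands at 17 of 21 lower and the mitosis list at 31 of 40 higher, against 7.46% and 7.24% over all genes.

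Many genes of the actin cytoskeleton rose. Of 35 actin and migration genes 18 rose and none fell (median 1.13, 12 higher and 1 lower with the block, 16 to 20 higher without one library). Tmsb4x, thymosin β4, which holds actin monomers, was at 986, 731, 908 and 1799 CPM in iSCs and 3728, 7617, 7453 and 6301 CPM in bSCs (2.504 ± 0.33, adjusted p = 0.000504). Intact 5 was the highest intact library and bridge 1 the lowest bridge library, and they stayed apart. Msn, moesin, which ties actin to the membrane, was at 361, 400.4, 384 and 387 CPM in iSCs and 1312, 1210, 1549 and 2085 CPM in bSCs (2.01 ± 0.32, adjusted p = 0.00118), and Actb, β-actin, at 5666, 5454, 6011 and 8364 and 14750, 19450, 22240 and 24410 CPM (1.67 ± 0.30, adjusted p = 0.00288). Tm4sf1, a tetraspanin-like protein of migrating cells, had one of the 6 lowest p values of all genes, at 134, 88.7, 99.2 and 111 CPM in iSCs and 652, 1124, 1054 and 1396 CPM in bSCs (3.29 ± 0.27, adjusted p = 3.79e-05).

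Some genes of growth and biosynthesis rose. Of 38 ribosome biogenesis and MYC target genes 12 rose and none fell (median 1.06, 9 with the block, 10 to 14 without one library). Ran, the nuclear transport GTPase, was at 115, 128, 125 and 122 CPM in iSCs, a narrow band, and at 482, 852, 861 and 1025 CPM in bSCs (2.72 ± 0.24, adjusted p = 4.17e-05). Npm1, the nucleolar chaperone nucleophosmin, rose by 1.65 ± 0.24 (adjusted p = 0.000719). Myc itself was at 31.8, 42.7, 26.8 and 27.3 CPM in iSCs and 65.7, 41.5, 82.2 and 68.9 CPM in bSCs with overlap (1.00 ± 0.37, adjusted p = 0.0878; adjusted p = 0.0415 with DESeq2). Of 20 tested chromatin genes 6 rose and none fell. Hmgn2, a nucleosome-binding protein, was at 211, 211, 196 and 188 CPM in iSCs and 988, 1059, 1108 and 1080 CPM in bSCs, both narrow bands (2.39 ± 0.20, adjusted p = 3.79e-05), and the histone variant H2afz at 157, 138, 127 and 154 and 746, 1049, 850.3 and 1068 CPM (2.69 ± 0.23, adjusted p = 3.82e-05). Ran, Npm1, Hmgn2, H2afz, Tmsb4x, Actb, Gapdh and Ldha have processed copies elsewhere in the genome, so their counts are uncertain by the reads that the copies share. Of 50 oxidative phosphorylation genes 19 rose and none fell (median 0.71), but 2 with the block and 11 without intact 1. Atp5o, a subunit of the mitochondrial ATP synthase, was at 119.6, 126, 107 and 131 CPM in iSCs and 305, 326, 350.4 and 315 CPM in bSCs (1.42 ± 0.20, adjusted p = 0.000573). Of 27 tested glycolysis and hypoxia genes 5 rose (18.5%) and 6 fell (22.2%), with 5 and 2 under the block. The enzyme gene Ldha, lactate dehydrogenase A, rose by 1.66 ± 0.23 (adjusted p = 0.000611), and Ndrg1, a hypoxia-responsive gene whose loss causes a demyelinating neuropathy, was at 2113, 2358, 2191 and 903 CPM in iSCs and 222, 283, 587 and 272 CPM in bSCs (-2.47 ± 0.39, adjusted p = 0.00122). The 5 that rose were Ldha, Pgam1, Pgk1, Pkm and Gapdh, all enzymes of glycolysis.

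Markers of immature and repair SCs were mixed. Of 27 tested markers 7 rose and 1 fell (4 and 1 with the block), and 0 fell without intact 1, intact 2 or bridge 2 and 3 without intact 4. Besides Tnc and Ngfr, the growth factor gene Btc was at 0.858, 0.712, 0.303 and 0 CPM in iSCs and 10.2, 122, 42.3 and 71.2 CPM in bSCs (6.98 ± 0.90, adjusted p = 0.000453), with bridge 1 the lowest bridge library. Nes, the intermediate filament nestin, was at 78.8, 66.6, 104 and 49.5 CPM in iSCs and 266, 411, 238 and 770.1 CPM in bSCs (2.49 ± 0.47, adjusted p = 0.00349). Gdnf, a growth factor for motor neurons, had no count in any intact library and was at 0.269, 6.29, 2.06 and 18.6 CPM in bSCs (adjusted p = 0.00733; adjusted p = 0.0686 with the block). The progenitor factor Sox2 was at 7.88, 9.61, 1.82 and 5.73 CPM in iSCs and 0.224, 13.2, 11 and 11.9 CPM in bSCs. Bridge 1 lay below every intact library and the other bridge libraries lay above every one, and the gene was not called (0.54 ± 0.92, adjusted p = 0.776). Jun, the factor that directs the repair state, was at 876, 1310, 326 and 481 CPM in iSCs and 443, 236, 352 and 324 CPM in bSCs (-1.14 ± 0.39, adjusted p = 0.066; adjusted p = 0.017 with DESeq2 and 0.0267 without intact 4).

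Jun is one of the immediate-early genes, which cells induce within minutes of a stimulus. Of 26 immediate-early and heat shock genes 7 fell and 2 rose (9 lower with the block, 12 without intact 4, 2 without intact 1 or intact 2, and 3 without bridge 2, 3 or 5). Fos was at 4649, 7409, 847 and 1633 CPM in iSCs and 1313, 579, 474 and 397 CPM in bSCs (-2.40 ± 0.59, adjusted p = 0.0158), a call lost without intact 2 or bridge 3. Egr1, a zinc-finger factor, was at 1050, 1510, 179 and 684 CPM in iSCs and 205, 101, 237 and 87.8 CPM in bSCs (-2.44 ± 0.57, adjusted p = 0.0122). Both were highest in intact 1 and intact 2, and intact 4 lay inside the bridge range for both. The summed level of the list was 4697 to 19620 CPM in iSCs and 5975 to 8300 CPM in bSCs, inside the intact range.

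Some imprinted genes that are high in fetal tissue rose. Of 13 tested imprinted growth genes 4 rose (30.8%) and 1 fell (7.69%), with 3 and 0 under the block. Mest was at 46.6, 19.4, 84.6 and 128 CPM in iSCs and 2564, 748, 520.4 and 1426 CPM in bSCs (4.24 ± 0.70, adjusted p = 0.00161). The noncoding RNA H19 was at 32.5, 9.05, 50.97 and 43.8 CPM in iSCs and 428, 281, 148 and 200.4 CPM in bSCs (2.96 ± 0.50, adjusted p = 0.00179). Grb10, which damps insulin signalling, rose by 2.16 ± 0.37 (adjusted p = 0.00189). The fourth was Igf2r (adjusted p = 0.0252; adjusted p = 0.0695 with the block), a call lost without intact 1, 2 or 4 or bridge 1 or 2. The gene that fell was Meg3 (adjusted p = 0.0472; adjusted p = 0.184 with the block), a call lost without intact 1, 4 or 5 or bridge 2, 3 or 5. Of 37 tested guidance and Eph genes 1 rose (2.70%) and 5 fell (13.5%), beside 7.24% and 7.46% of all genes. With the block 1 rose and 3 fell, and 2 were higher without intact 5 and 3 without bridge 3. Sema4f, a semaphorin of SC contact with axons, was the riser, from 2.73, 1.12, 0.682 and 0.403 CPM in iSCs to 34.3, 46.8, 144 and 242 CPM in bSCs (6.55 ± 0.91, adjusted p = 0.000573), and Sema3b, a secreted semaphorin, fell by 2.45 ± 0.46 (adjusted p = 0.00324).

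Some genes had counts in every library of one group and none in the other. With no count in any intact library and at least 10 counts in every bridge library there were 9 of the 24016 listed genes. Among them were Aurkb, Bub1, Esco2, Lrr1, Osm, Ppp1r36, Rgs8 and Scx. The reverse held for 184 of the 24016. Bridge libraries also detected fewer genes in all (mean 12226.8 against 14376.5). A count of 0 does not show absence. In single-nerve bridge libraries Ntrk3 reached 10.75 CPM and Tmem229a 8.11 CPM. Scx is a transcription factor of tendon, Osm a cytokine of the interleukin-6 family, and Bub1 and Esco2 serve chromosome segregation. Lrr1, Ppp1r36 and Scx did not pass with the block. These genes were chosen after their values were seen. Among genes with a group mean of at least 50 CPM, Lrrc15, a leucine-rich repeat membrane protein (chr16:30269388-30283342, minus strand, mm9), was at 0, 0, 0.0757 and 0.0807 CPM in iSCs, where it had 2 counts in all, and at 219, 105, 70.6 and 203 CPM in bSCs (adjusted p = 0.000504). Syt13, of the synaptotagmin family, rose by 7.38 ± 1.17 (adjusted p = 0.0012). In the other direction Tmem229a, a membrane protein, was at 103, 152, 178 and 27.6 CPM in iSCs and at 0 in bSCs, at least 613-fold lower (adjusted p = 0.00367). Adamtsl3, a matrix protein, and Tgfa, an EGF receptor ligand, were also at 0 in every bridge library, at least 349-fold (adjusted p = 0.000337) and 228-fold lower (adjusted p = 0.00425). Mapk8ip3, a scaffold of JNK and kinesin transport, was at 96.1, 105, 85.4 and 76.3 CPM in iSCs and 0.179, 0.439, 0.43 and 0.7 CPM in bSCs (-7.67 ± 0.62, adjusted p = 3.79e-05). Of the 12 largest decreases 8 more were at or near 0 in bSCs, namely Ccdc37, Serpind1, Myh11, Rasgef1a, Art4, Inmt, Dusp26 and Cbx7, with adjusted p values from 0.000106 (Serpind1) to 0.00777 (Art4). Serpind1 and Inmt, an inhibitor of thrombin and a methyltransferase, were at 174, 122, 139 and 65.01 and 106, 41.1, 193 and 444 CPM in iSCs.

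Other pathways were read from lists beside the 7.24% higher and 7.46% lower of all genes. Of 9 tested neuregulin and EGF genes 2 rose (22.2%; Btc and Hbegf, both ligands) and 1 fell (11.1%; Tgfa). Hbegf did not pass with the block (adjusted p = 0.019; adjusted p = 0.105 with the block) or without bridge 2. Of 13 tested hedgehog genes 1 was called, the SC ligand Dhh, which was lower (adjusted p = 0.0412) but not with the block (adjusted p = 0.0618), and its call was lost in 7 of the 8 fits without one library, all but that without intact 5. Of 15 tested Notch genes the ligand Jag1 rose (adjusted p = 0.0137; adjusted p = 0.0746 with the block) and the receptor Notch2 fell, and of 17 tested YAP and TEAD genes the kinase Lats2 fell. Of 22 interferon response genes 0 rose and 2 fell, and of 14 antigen presentation genes 0 rose and 2 fell (14.3%). For antigen presentation 0 fell with the block or without intact 1, 2, 4 or 5 or bridge 3 or 5, and 4 were called higher without intact 5. Of 26 lysosome and autophagy genes 4 rose (15.4%) and 2 fell (7.69%), with 2 and 0 under the block, 8 higher without intact 5 and 0 lower without intact 1, 2 or 5 or bridge 3. Of 16 genes of phagocytosis and lipid efflux 2 rose (12.5%) and 4 fell (25.0%), with 1 and 0 under the block, 2 lower without intact 1, and 1 higher without intact 1, 4 or 5 or bridge 1, 2 or 5. Of 23 tested chemokines and cytokines 2 rose, Mif and Cx3cl1, and 1 fell, the macrophage growth factor Csf1. Cx3cl1 did not pass with the block (adjusted p = 0.0119; adjusted p = 0.123 with the block), 6 were called higher without intact 5, and 2 lower without intact 2 or bridge 2 or 5.

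Markers of other cell types differed in how they moved. Of 20 macrophage markers 0 were called with edgeR (2 higher at an unadjusted p under 0.05, 2 with DESeq2, and 15 with edgeR without intact 5), and the median log2 fold change was 1.17. Their summed level was 569.6, 300.7, 1907 and 7913 CPM in iSCs and 7674, 11490, 5714 and 3554 CPM in bSCs, and intact 5 lay inside the bridge range. Ctsd, a lysosomal protease that macrophages also make, rose from 579, 632, 814 and 891 CPM in iSCs to 3681, 3314, 2564 and 1548 CPM in bSCs (1.93 ± 0.31, adjusted p = 0.00128), and the part of macrophages in it was not tested. Of 13 fibroblast markers 0 rose and 3 fell (23.1%), Dcn, Pi16 and Lum. With the block 1 was lower, where Pi16 had adjusted p = 0.107, and 1 was higher without intact 5. The summed level was 18980, 11850, 38580 and 59620 CPM in iSCs and 36950, 20500, 20720 and 30470 CPM in bSCs. All 13 were detected in all 8 libraries, and the part of fibroblasts in the matrix genes was not tested. Of 8 perineurial markers 5 fell and 1 rose (3 and 0 with the block; 3 lower without intact 1, 2 or 5 or bridge 1, 2 or 3, and 0 higher without each intact library in turn or bridge 3 or 5), with summed levels of 885 to 1187 CPM in iSCs and 256 to 458 CPM in bSCs. Of 4 tested mast cell markers 4 fell, with a summed level of 1265 CPM in intact 5 and 0.102 to 73.1 CPM in the other intact libraries, and none was called without intact 5 and 1 without each bridge library in turn. Of 12 endothelial markers 0 were called with edgeR (2 higher at an unadjusted p under 0.05, 1 with DESeq2, and 1 with edgeR without bridge 5), and the summed level was 196 to 1025 CPM in iSCs and 249 to 1862 CPM in bSCs. Of 9 mural cell markers Mcam rose and Myh11 fell, of 3 tested adipocyte markers Car3 and Cfd fell, Csf3r rose among 2 tested neutrophil markers and Alas2, the 1 erythroid marker tested, fell. Cfd, Mcam and Alas2 did not pass with the block. With the block 0 mural markers were called higher, 1 adipocyte marker lower and 0 erythroid markers lower, and the call of Mcam was lost without intact 4 or 5 or bridge 2 or 5. Of 2 tested lymphocyte and 2 tested muscle markers 0 were called with edgeR and 0 with DESeq2, and 1, Tnni2, had an unadjusted edgeR p under 0.05. Of 3 tested neuronal markers 2 rose, Tubb3 and Uchl1. Tubb3, a tubulin of neurons, was at 5.38, 8.29, 0.303 and 5.32 CPM in iSCs and 100.3, 106, 308 and 132 CPM in bSCs (5.06 ± 0.74, adjusted p = 0.000755).

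**Figure D4:**
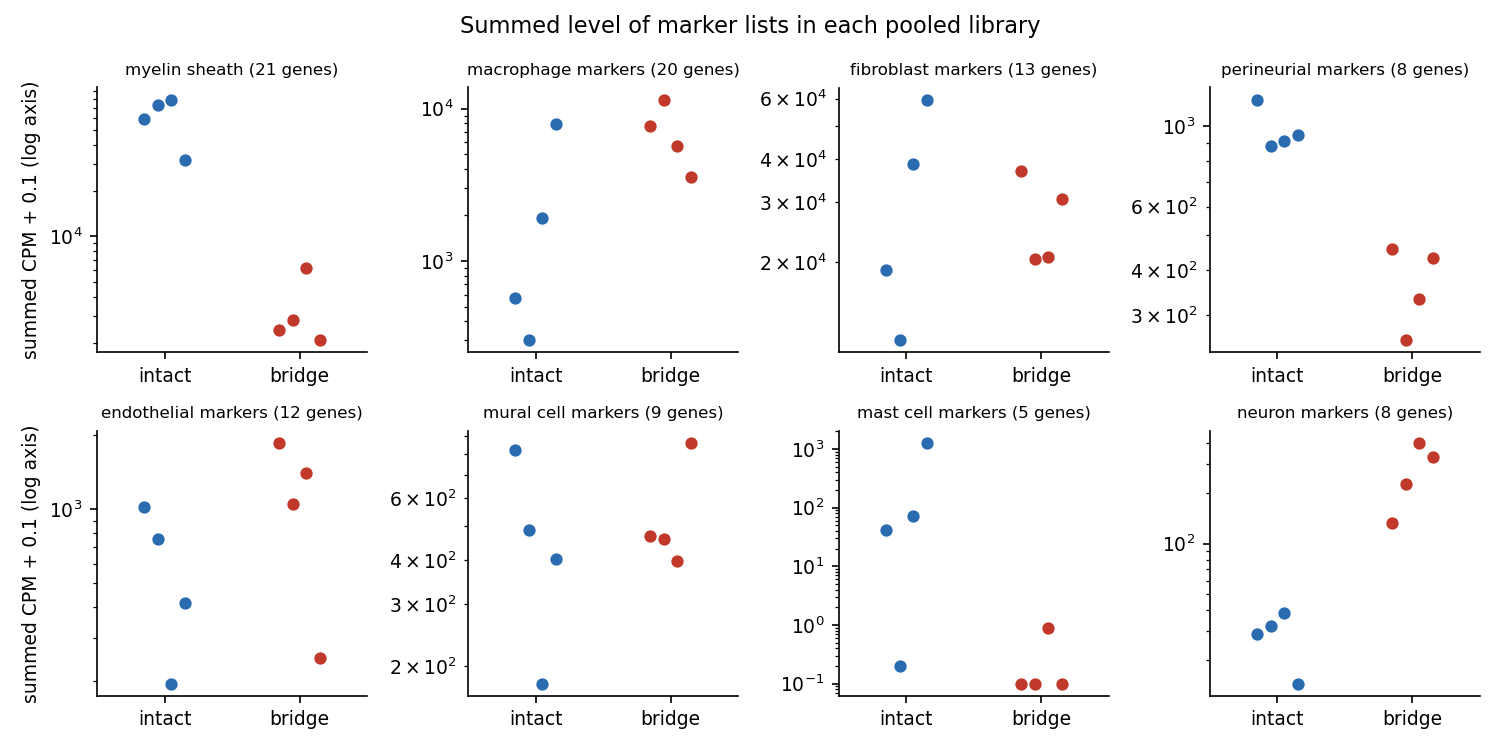
Summed CPM plus 0.1 (log axis) of the myelin list and of 7 marker lists in each pooled library (blue, intact; red, bridge; n = 4 each). The myelin, perineurial and neuronal sums do not overlap between groups, while intact 5 lies inside or above the bridge range for macrophage, fibroblast and mast cell markers.

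The same bridge libraries were then set against the 4 distal-stump libraries, which hold SCs that have lost axon contact but did not enter the wound. This comparison shares the bridge libraries with the one against iSCs. Of 13751 genes 746 differed (5.43%), 318 higher (2.31%) and 428 lower (3.11%) in the bridge (236 with the block, 335 without distal 1, 325 without distal 5, 431 without distal 2, 424 without bridge 5 and 490 without bridge 3). Tnc was at 316 to 642 CPM in the distal stump, below every bridge library (log2 difference of bridge over distal 2.27 ± 0.45, adjusted p = 0.0138). Postn (2.10 ± 0.33, adjusted p = 0.00524), Thbs2 (1.51 ± 0.27, adjusted p = 0.00936) and Tm4sf1 (1.98 ± 0.25, adjusted p = 0.00206) were also higher in the bridge. So were Ccna2, the cyclin of S phase (1.87 ± 0.34, adjusted p = 0.0105), Rrm1 (1.81 ± 0.26, adjusted p = 0.00405), Ran (1.77 ± 0.23, adjusted p = 0.00234) and Msn (1.58 ± 0.31, adjusted p = 0.0137). Dcn, at 9537 to 15340 CPM in the distal stump, was lower in the bridge (-2.87 ± 0.51, adjusted p = 0.00918), as were Lamb2 (-2.36 ± 0.34, adjusted p = 0.00405) and Ntrk2 (-1.60 ± 0.27, adjusted p = 0.00657). These 11 calls held with the block and without each library. Other division genes were not all called. Mki67 (-0.03 ± 0.55, adjusted p = 0.987) and Ccnd1 (-0.03 ± 0.28, adjusted p = 0.97) were not. Nor were Aurkb, Ccnb1, Cdk1, Plk1, Prc1, Pbk, Tpx2 and Pcna (adjusted p = 0.0534 for Aurkb to 0.786 for Tpx2). Ube2c, Tk1, Uhrf1, Mcm6, Rrm2 and Cdk4 were called higher in the bridge, and of these only Uhrf1 also passed with the block. Pmp22 was not called between the injured sites (0.34 ± 0.51, adjusted p = 0.775). A p above the threshold does not show that the sites were alike for these genes.

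Single nerves of other mice gave a separate measurement of the same contrast. They held 3 bridge libraries of day 6 and 5 intact libraries, and 207 of 15519 genes were called (1.33%), 127 higher (0.818%) and 80 lower (0.515%). The number fell to 43 without bridge 1 and to 83 without bridge 0 of this set, and was 1434 with DESeq2, 92 without intact 0 and intact 1 of this set and 17 in a fit of these 8 libraries only. Intact 0 and intact 1 detected 10572 and 10042 genes, against 14045 to 15060 in the other intact nerves. Their 10 highest genes took 39.8% and 41.9% of counts. Of the 996 genes higher in the pooled bSCs, 657 (66.0%) had a higher mean in single-nerve bSCs, 61 were called and 0 were called in the opposite direction. Of the 1019 lower genes that were tested there, 835 (81.9%) were lower, 53 were called and 0 were called in the opposite direction. Over all genes tested in both, 61.2% had the same direction. Tnc was at 0.179 to 29.7 CPM (median 8.19) in 5 intact and 1545 to 3375 CPM in 3 bridge nerves (7.75 ± 0.93, adjusted p = 1.05e-05). Thbs2 (3.29 ± 0.51, adjusted p = 0.00106), Cd44 (2.39 ± 0.38, adjusted p = 0.00131), Mest (4.47 ± 0.82, adjusted p = 0.00399) and H19 (2.97 ± 0.55, adjusted p = 0.00399) were higher in the bridge and Dcn lower (-2.57 ± 0.42, adjusted p = 0.00146), and these 6 calls held without each library. Pmp22 was at 1918 to 18160 CPM in intact and 266 to 1310 CPM in bridge nerves (-3.60 ± 0.68, adjusted p = 0.00514, lost without bridge 1).

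The gene lists were summarised in the single nerves too. The median log2 fold change of the mitosis list was 2.87 in single nerves, where 40 of 40 genes had a higher mean in the bridge and 4 were called, and that of the myelin list was -1.93, with 20 of 21 lower and 1 called. Of 23 collagens 8 were called higher in single nerves, with a median of 1.74. The summed fibroblast markers also lay higher there without overlap, at 27930 to 35170 CPM in intact and 46230 to 57310 CPM in bridge nerves. That list holds the collagen genes Col1a1, Col1a2 and Col3a1, so its sum is not independent of the collagens. By gene, the fibroblast list had a median log2 fold change of -0.437, with 4 of 13 higher and 9 lower (2 called higher, 1 called lower). The part of fibroblasts in the collagens was not tested. For oxidative phosphorylation the median was 0.71 in pooled libraries and -1.36 in single nerves, where 47 of 50 genes had a lower mean and 0 were called with edgeR. The summed levels overlapped there, at 4289 to 23880 CPM (median 7482) in intact and 4234 to 7740 CPM (median 5300) in bridge nerves. The median log2 fold change also differed in sign for myelination transcription factors (-1.11 pooled and 0.355 single), sterol uptake and fatty acid synthesis (-1.18 and 0.125), axon-glia adhesion (-1.31 and 0.24), laminins and integrins (-0.25 and 0.70), matrix proteases and inhibitors (-0.159 and 1.005), and neuregulin and EGF (-0.83 and 1.12). It differed in sign as well for guidance, YAP and TEAD, antigen presentation, and chemokine genes and for endothelial, lymphocyte, muscle and erythroid markers. Sox10 was not called in single nerves and had a log2 fold change of 0.64 ± 0.64 (adjusted p = 0.66). Egr2 (0.27 ± 0.81), Scd2 (0.15 ± 0.39) and Lama2 (0.19 ± 0.51) also had the opposite sign there and were not called. Macrophage markers were called in 7 of 20 cases in single nerves, all higher, with summed levels of 354 to 1988 CPM in intact and 1361 to 9913 CPM in bridge nerves. Tmsb4x and Tm4sf1, both called in pooled libraries, were at 400.4 to 5222 and 236 to 1875 CPM in intact and at 753 to 2609 and 119.9 to 664 CPM in bridge single nerves, with overlap for both. Their log2 fold changes had the opposite sign in single nerves, at -0.47 ± 0.80 (adjusted p = 0.833) and -1.43 ± 0.69 (adjusted p = 0.291), and neither was called. The same held for Npm1, H2afz, Atp5o, Egr1, Sema3b and Tgfa. Other genes called in pooled libraries kept their sign but had smaller log2 fold changes in single nerves, overlapped and were not called. They included Lgals1 (0.06 ± 0.8), Pcna (0.0025 ± 0.44), Ran (0.18 ± 0.59) and Ldha (0.16 ± 0.445). Tnfrsf12a (0.36 ± 0.63), Upp1 (0.65 ± 1.31) and Hmgn2 (0.60 ± 0.42) were also among them. Some genes at or near 0 in 1 pooled group kept their sign in single nerves but overlapped and were not called. They included Ntrk3 (-2.63 ± 2.43, adjusted p = 0.629), Tmem229a (-2.78 ± 2.32, adjusted p = 0.587), Nfasc and Mapk8ip3. Aurkb, Lrrc15 and Adamtsl3 kept their sign without overlap and were not called (adjusted p = 0.194, 0.0686 and 0.128). Inmt was called lower (adjusted p = 0.0187).

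**Figure D5:**
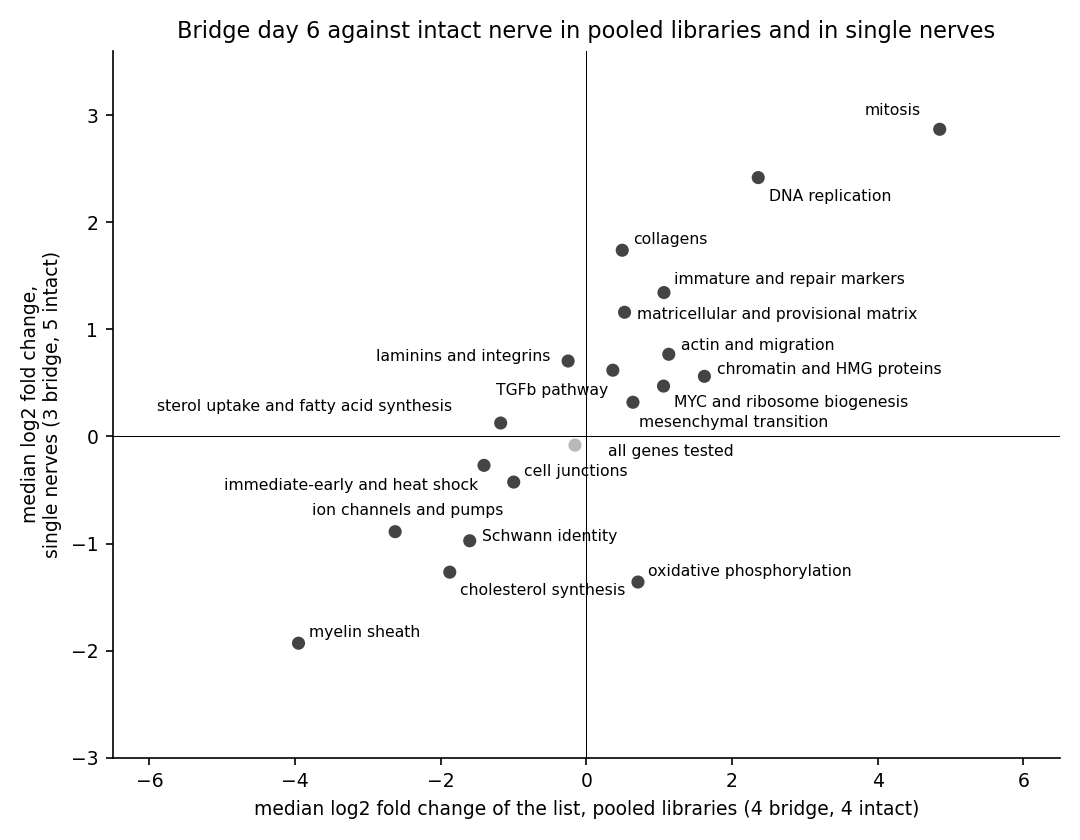
Median log2 fold change of bSCs over iSCs for 19 gene lists and for all genes (grey), in pooled libraries (x axis) and in single nerves of other mice (y axis). Mitosis lies at 4.85 and 2.87, myelin at -3.95 and -1.93, and oxidative phosphorylation at 0.71 and -1.36. Sterol uptake and fatty acid synthesis and laminins and integrins also differ in sign.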

How the data were processed

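RNA of tdTomato-sorted mouse SCs was sequenced by Smart-seq2. The authors aligned the reads with TopHat 2.0.11 to mm9 (NCBI Build 37) and counted them per gene with HTSeq. The deposited values are raw counts for each lane. The counts of both lanes of a library were summed, and rows naming no gene and ERCC spike-ins were left out of library sizes and tests. Counting used reads without molecular identifiers, so reads are not independent molecules, and the libraries do not mark strand, so overlapping and antisense genes cannot be told apart.

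Genes were filtered with filterByExpr, scaled by TMM and tested with the edgeR 4.0.16 quasi-likelihood test in R 4.3.3, in 1 fit of the 12 pooled libraries of intact nerve, bridge and distal stump. Single nerves were tested in 1 fit of 35 libraries. P-values were adjusted over all tested genes by Benjamini-Hochberg, with calls at 0.05. The SE given is the absolute log2 fold change divided by the square root of the quasi-likelihood F statistic. Alternatives were DESeq2 1.42.0, DESeq2 size factors, other filters, bridge and intact libraries only, a lane-file covariate, robust dispersion, the replicate block and each library left out. The script was tested on simulated data. For the pooled comparison it recovered 28 of 46 genes changed 16-fold and 1 of 46 changed 2-fold.

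Members and gene lists were chosen with earlier results of these data known. The genes named were the 12 largest increases and 12 largest decreases among called genes with groups that did not overlap and at least 50 CPM in the higher group, the 6 lowest p values, the 3 lowest p values per direction of each list, 9 genes chosen by name, and other list members given with their values. Some genes that this rule names are not reported here. The labels give the same animal identifier to bridge and intact libraries 1, 2 and 5, so these pair, while bridge 3 and intact 4 do not. Deviations from the group means correlated at -0.0084, -0.0778 and -0.1665 within the 3 pairs. For pooled nerves, p-values set each difference against the spread between pools of 3 mice within groups of the 12 libraries, not between single mice. In single nerves it is the spread between the 35 libraries within their groups. The main test did not use the pairs, while the block used the pool number. Promoters came from RefSeq (GRCm38.p6), and gene positions from an mm9 annotation.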

Additional observations from a re-analysis of the deposited data

Results flagged for a closer look

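Of 224 groups of 4 libraries searched, 17 held a library whose gap to the nearest other exceeded Dixon's limit on the log2 scale, and chance flags about 1 group in 20. In bridge 3 the share of uniquely aligned reads assigned to genes was 43.84% and the share of counts taken by the 10 highest genes was 8.154%, each below the other bridge libraries. In iSCs 1 library stood apart for Insig1 at 240.0 CPM, Ndrg1 at 903 CPM and Ccnd1 at 71.6 CPM, each below the other 3, and for Lama2 at 555 CPM, above them. Traces of division genes stood out in single intact libraries, with Cdk1 at 6.94 CPM, Pbk at 2.26 CPM and Tpx2 at 2.04 CPM. In bSCs, Sox2 was at 0.224 CPM and Upp1 at 14.3 CPM in bridge 1, below the other bridge libraries. The remaining flags rest on 1 library with a few counts or a low level, with Myh11 at 0.0859, Rasgef1a at 0.0859, Inmt at 0.773, Dusp26 at 0.224 and Cbx7 at 0.269 CPM in a bridge library and Rasgef1a at 3.39 CPM in an intact library.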

How the results depend on the processing

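Each alternative changed 1 choice at a time. Of 13751 genes, the number that differed between bSCs and iSCs was 2022, 3114 with DESeq2 (1742 of them lower) and 968 with the replicate block (491 higher, 477 lower). Without one library it ranged from 1318 to 2082, with 695 to 1124 higher and 623 to 958 lower. Size factors, filters, the lane-file covariate, robust dispersion and the fit of bridge and intact libraries only kept the total within 1.5 times. The named genes whose calls the block ended are given as such in the results, and Mag was called with it. For bridge against distal stump, 746 genes differed, 1939 with DESeq2, 236 with the block, and 325 to 799 without one library. For single nerves, 207 genes differed (127 higher, 80 lower), 1434 with DESeq2 (579 and 855), 434 with the replicate block (310 and 124) and 17 in a fit of these 8 libraries only (7 and 10). It was 92 (52 and 40) without intact 0 and intact 1, the intact libraries with the fewest genes detected, an alternative chosen after seeing the data. Without one library the number was 43 to 262, with 36 to 153 higher and 7 to 109 lower. The single-nerve numbers are shared by samples of different animals, so that block does not pair them. The difference in detected genes was -2149.75, and -2408.58 to -1946.25 without one library. The log2 ratio of spike-in to gene counts differed by 0.8725 between groups (two-sided exact permutation test, p = 0.6571), and by -0.3192 to 1.7783 without one library, turning its direction to -0.3192 without bridge 3 and -0.2237 without intact 2. The cause of these changes was not tested. In the simulated data, where far fewer genes changed than were called here, 1 of 46 2-fold changes was called. The share of small changes missed in the real libraries was not measured.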
